A study of Caenorhabditis elegans with 2 samples.

Results

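SKN-1 peaks inside introns, outside the promoter windows defined below, made up 210 of the 1778 peaks (11.8%, Wilson 95% interval 10.4 to 13.4%) in a map of SKN-1 binding in whole third-stage (L3) larvae of Caenorhabditis elegans. A summit, the highest point of a peak, counted when it lay in the body of a protein-coding gene, in no exon of such a gene, and outside every promoter window, which spans 1000 bp before and 200 bp after a protein-coding 5′ end. Within the list of 1778 peaks, no signal value entered this choice. The map came from chromatin immunoprecipitation and sequencing (ChIP-seq), which the samples' description says was against eGFP-tagged SKN-1, while the antibody label names skn-1. Which of them the antibody recognised is not settled by the labels. Both samples were biological replicates of 1 group, mixed in sex, of strain OP342, which carries unc-119(ed3) III and the integrated transgene wgIs342. No other condition was analysed here. The 1778 peaks are the deposited list that passed a test of irreproducible discovery rate (IDR), which asks whether the ranks of peaks repeat between replicates. Their other members were 1171 promoter peaks, 371 peaks between genes and 26 peaks in exons. Positions are on ce11 (WBcel235), with genes from Ensembl release 115.

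SKN-1 is the worm relative of the mammalian Nrf factors and is known for switching on detoxification and oxidative stress genes, mostly from sites in promoters, in the intestine and elsewhere. Introns can hold enhancers and internal start sites of the gene around them. They can also hold complete genes for small RNAs, such as tRNAs, which RNA polymerase III transcribes from promoter elements inside the gene, and snoRNAs, which guide the modification of other RNAs. Whole larvae mix all tissues, so a peak here cannot be assigned to a cell type.

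The sequences under the intron summits were of several kinds. The windows shown are the 101 bp around a summit on the + strand, read from the RefSeq genome of WBcel235. In the first set, capitals mark the SKN-1 consensus or its core. The core was ATCAT or GTCAT on either strand, and the consensus was that core with 1 further T and 2 A or T bases before it, so AATATCAT, AATGTCAT, ATTATCAT, ATTGTCAT, TATATCAT, TATGTCAT, TTTATCAT or TTTGTCAT. These windows are shown because they hold the strongest intron peak, the strongest with a consensus, a pair in the same intron, and clusters of cores.
egl-5 intron 1, chrIII:7814786-7814886: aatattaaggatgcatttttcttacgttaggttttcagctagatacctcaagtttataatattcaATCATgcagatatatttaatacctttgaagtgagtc
pqn-41 intron 14, chrIII:1925073-1925173: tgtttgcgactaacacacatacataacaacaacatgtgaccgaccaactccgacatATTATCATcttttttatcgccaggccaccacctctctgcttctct
nhr-19 intron 2, first site, chrII:9604795-9604895: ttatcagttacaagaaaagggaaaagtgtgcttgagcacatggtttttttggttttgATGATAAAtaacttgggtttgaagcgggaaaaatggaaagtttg
nhr-19 intron 2, second site, chrII:9601217-9601317: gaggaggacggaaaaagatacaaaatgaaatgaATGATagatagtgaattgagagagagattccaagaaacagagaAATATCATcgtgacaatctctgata
epg-9 intron 2, chrIV:2602113-2602213: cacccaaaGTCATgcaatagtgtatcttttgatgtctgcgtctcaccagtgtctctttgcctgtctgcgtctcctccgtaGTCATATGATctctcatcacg
fkh-7 intron 4, chrIV:5604635-5604735: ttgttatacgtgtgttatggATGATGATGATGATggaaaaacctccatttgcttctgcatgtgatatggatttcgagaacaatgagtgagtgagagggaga
In the second set, capitals mark GAGAGA on either strand, the word with the widest difference in share between intron summits and their flanks. These windows hold the strongest intron peak outside egl-5 and the strongest in a gene of the insulin, MAP kinase and TGF-beta list.
osgn-1 intron 3, chrIV:4215509-4215609: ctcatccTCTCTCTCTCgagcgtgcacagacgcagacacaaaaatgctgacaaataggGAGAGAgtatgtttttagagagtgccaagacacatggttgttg
daf-14 intron 1, chrIV:10252532-10252632: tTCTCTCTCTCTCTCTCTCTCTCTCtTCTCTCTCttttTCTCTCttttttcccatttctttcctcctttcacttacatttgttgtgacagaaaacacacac
In the third set, capitals mark GTTCGANNC, a word of the B box, the internal promoter element of tRNA genes. The summit in unc-33 lies inside an annotated tRNA gene, that in frm-7 inside an annotated snoRNA gene (C51F7.4) and that in him-4 inside a gene annotated as ncRNA (F15G9.8).
unc-33 intron 9, chrIV:3524794-3524894: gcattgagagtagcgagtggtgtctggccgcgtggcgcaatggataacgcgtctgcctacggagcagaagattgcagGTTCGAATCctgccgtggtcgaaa
frm-7 intron 4, chrV:12303593-12303693: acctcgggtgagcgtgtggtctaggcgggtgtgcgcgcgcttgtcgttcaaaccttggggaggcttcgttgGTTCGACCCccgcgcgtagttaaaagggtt
him-4 intron 39, chrX:9743628-9743728: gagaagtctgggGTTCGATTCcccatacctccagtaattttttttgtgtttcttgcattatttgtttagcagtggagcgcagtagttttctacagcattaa

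Intron peaks were spread over many genes, and long introns and first introns held more than their share. The 210 summits fell in 180 host genes, and no summit had more than 1 host. Hosts were 1.04% of the 17314 genes that have any intron sequence meeting the rule (eligible sequence), so every share of hosts in a gene group below is read against that figure. Eligible sequence amounted to 27.2 Mb, or 27.1% of the genome, and it held 11.8% of the IDR-thresholded peaks, against 25.2% of the lines of the pooled list below them. The 210 peaks came to 7.72 per Mb of eligible sequence.

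Intron rank was counted from the 5′ end of the longest spliced transcript whose intron holds the summit. First introns held 73 summits (34.8%, 28.6 to 41.4%) and 21.6% of eligible bases, which is 12.4 peaks per Mb. Second introns held 30 summits, introns of rank 3 held 18, those of rank 4 to 5 held 41, those of rank 6 to 10 held 33 and those beyond held 15. In each of these later bins the share of summits was at or below the share of bases, at 5.16 to 7.58 peaks per Mb. The median rank was 3 and the highest was 39, in him-4, which encodes the large matrix protein hemicentin. When an intron counted as first if it was first in any transcript of the host, 97 summits (46.2%) qualified, beside 28.7% of bases.

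Introns over 5000 bp held 67 summits (31.9%, 25.97 to 38.5%) but 13.2% of eligible bases, or 18.7 peaks per Mb. Those over 2000 and up to 5000 bp held 48 (22.9%) and 15.04% of bases, or 11.7 peaks per Mb. The least dense class of the 5 was over 1000 and up to 2000 bp, with 17 summits (8.10%) on 19.1% of bases, or 3.27 peaks per Mb. Introns up to 500 bp held 46 summits on 29.1% of bases, and those over 500 and up to 1000 bp held 32 on 23.6%. The median summit lay in an intron of 2445.5 bp, while the median eligible base lay in one of 929 bp. First introns are often long, so rank and length overlap. Among introns over 5000 bp, 40 of 67 summits (59.7%, 47.7 to 70.6%) were in first introns, beside 45.3% of bases, and among those over 2000 and up to 5000 bp it was 20 of 48 (41.7%, 28.8 to 55.7%), beside 29.9% of bases. These shares of bases are a description without a test.

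**Figure D1:**
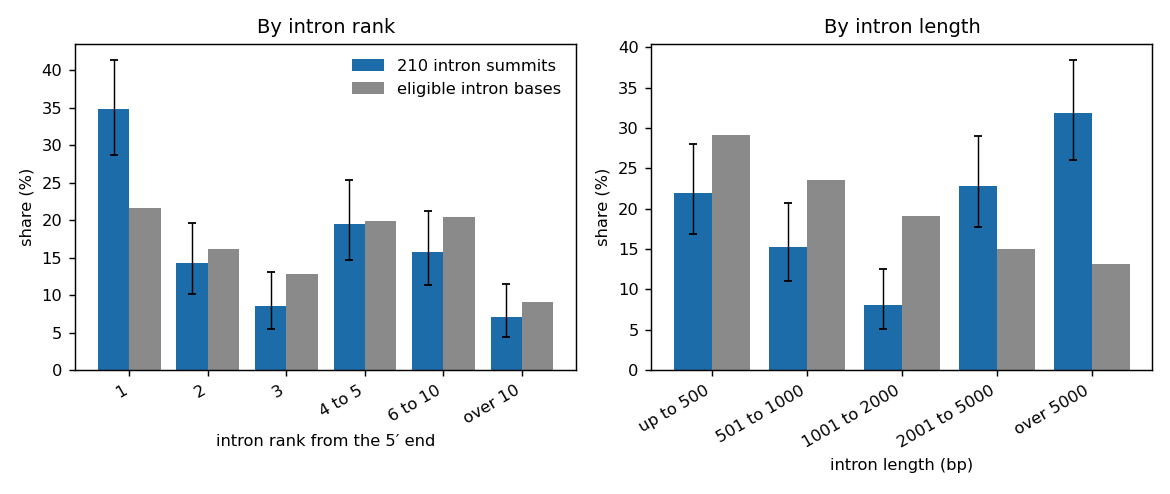
Share (%) of the 210 intron summits (blue, with Wilson 95% intervals) and of eligible intron bases (grey) by intron rank (left) and intron length in bp (right). First introns held 34.8% of summits on 21.6% of bases, and introns over 5000 bp held 31.9% on 13.2%.

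Intron peaks lay at a wide range of distances from annotated starts. The distance to the nearest protein-coding 5′ end ran from 223 to 20290 bp with a median of 1583 bp. It was over 2000 bp for 86 summits and over 5000 bp for 19. For 181 summits the nearest 5′ end belonged to the host itself and for 29 to another gene. Of all these summits, 66 lay upstream of the nearest 5′ end (minus sign below). Some of them were just beyond the 1000 bp limit of a window at a further start of the host. Examples were osgn-1 (-1072 bp), daf-14 (-1084 bp) and a pqn-41 peak of signal value 47.0 (-1065 bp). Others were farther away, such as mpk-1 (-4159 bp). With a promoter window of 2000 bp upstream, 163 intron peaks remained. When each intron was divided into 3 equal lengths, the middle held 97 summits (46.2%, 39.6 to 52.9%) and 34.3% of eligible bases. The 5′ stretch held 71 (33.8%) on 34.6% of bases and the 3′ stretch held 42 (interval 15.2 to 25.9%) on 31.0%. Near the limit of the rule, the closest summits kept were 14 bp outside a promoter window in F12F6.1 (signal value 36.8) and 23 bp outside in Y62E10A.13 (49.2), and the closest left out were 1 bp inside, in elo-1 (28.1), and 4 bp inside, in E01G4.3 (27.2).

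Host genes were long, with a median of 8480.5 bp over the 210 summits, beside 2305 bp over genes with eligible sequence. Of the 180 hosts, 29 (16.1%) also had a SKN-1 peak in their own promoter, against 7.33% of genes with eligible sequence. Promoter windows were set at every protein-coding 5′ end, so a gene with several such ends has several windows. The shares were not adjusted for this or for gene length, and were not tested. Chromosomes III and X each held 46 intron peaks, at 10.3 and 10.1 per Mb of eligible sequence. The fewest were on chromosome I, with 23, or 4.61 per Mb.

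The strongest intron peaks were in egl-5, the Abdominal-B type Hox gene that patterns the tail. The signal value is the height of a peak on the authors' own scale, and it is used here only to rank peaks within a list. Of the 4 egl-5 summits, all within a called block of 2671 bp, the strongest (III, 7814836, intron 1 of 3) had a signal value of 1175 in the IDR-thresholded list, 213 in replicate 1 and 1004 in replicate 2, and ranked 2 in each list. The next (III, 7815770, intron 3) had 583, with 25.3 in replicate 1 and 522 in replicate 2. The third (III, 7815973) had 152 in the list and 232 in replicate 2, with no summit within 100 bp in replicate 1. The fourth (III, 7815035) went the other way, with 27.5 in the list, 81.5 and rank 8 in replicate 1, and 48.1 and rank 231 in replicate 2. Thus the block was strong in both replicates while the summits inside it were placed differently. The egl-5 window with the highest signal held 1 core and no consensus, as printed, and lay 45 bp from a gene annotated as ncRNA (C08C3.10).

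After egl-5 came osgn-1, a relative of the vertebrate oxidative stress induced growth inhibitors, with a signal value of 510 in the list, 168 in replicate 1 and 347 in replicate 2 (IV, 4215559). It ranked 4 in all 3 lists, and its window held 4 GAGAGA words, some overlapping, and no core. The uncharacterised gene Y41G9A.17 on X had 207 in the list, 74.5 in replicate 1 and 136 in replicate 2. mom-1, which encodes a Porcupine relative needed to secrete Wnt proteins, had 156, with 54.7 in replicate 1 and 105 in replicate 2. These peaks ranked high in both replicates. Neither window held a core.

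The next hosts had signal values from 66.7 to 107. They were epg-9, an autophagy gene (107, with 3 cores), pqn-41, which encodes a glutamine-rich protein (101), Y111B2A.12 (94.0), the forkhead factor gene fkh-7 (89.2, with 4 cores), the sulfate permease gene sulp-3 (88.2), ntl-3, a subunit of the CCR4-NOT deadenylase (80.9), the aspartyl protease gene asp-14 (75.4), the MADS-box factor gene mef-2 (72.6) and haf-9, an ABC transporter of gut granules (66.7). The sulp-3 summit lay 40 bp from a tRNA gene, and the haf-9 summit lay inside a gene annotated as ncRNA (ZK484.10) with a snoRNA gene within 200 bp. All 9 peaks had a summit within 100 bp in both replicates. In replicate 1 they ranked between 61 and 522, and in replicate 2 between 70 and 308.

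Some genes held several intron peaks. There were 158 hosts with 1, 16 with 2, 4 with 3 and 2 with 4, so 52 peaks shared a host with another. The 4 peaks of pqn-41 lay within its single 10372 bp intron 14, spread over 5124 bp, with signal values of 101, 47.5, 47.0 and 42.0, and all were found in both replicates. The 3 peaks of the nuclear hormone receptor gene nhr-19 lay in its 4213 bp intron 2, with signal values of 62.0, 29.7 and 27.2. There the strongest held no core, while the other two carry the consensus printed above. lin-14, whose product times larval cell fates, had 3 peaks (46.4, 40.0 and 36.4) in introns 1 and 3. T28B11.1 had 3 in a first intron of 17091 bp (41.4, 28.4 and 27.7). ppfr-1, a regulatory subunit of protein phosphatase 4, had 3 (40.0, 36.4 and 32.0). Few intron peaks lay close together, since 10 of the 210 summits had another peak of the list within 1000 bp, among them the 4 of egl-5, and the median distance was 9911 bp.

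Among the 20 gene lists, the one named for insulin, MAP kinase and TGF-beta signalling had the most hosts for its number of genes after the 6 Hox genes. Of the 53 genes of this list with eligible sequence, 8 (15.1%) were hosts, against 1.04% of all genes. The 9 peaks of these hosts came to 42.9 per Mb of eligible sequence, against 7.72. They were daf-14, a Smad of the dauer pathway (signal value 63.7), unc-43, the CaM kinase II gene (59.2 and 39.9), pdk-1, a kinase below the insulin receptor (53.7), the MAP kinase phosphatase gene vhp-1 (52.0), the ERK gene mpk-1 (50.4), the insulin receptor gene daf-2 (43.7), aak-2, an AMP-activated kinase subunit (38.6), and sma-9, a Schnurri relative (33.1). Of these peaks, 8 were in a first intron and that of pdk-1 was in the second. The mpk-1 summit had no match in replicate 1. daf-14 had 29.4 in replicate 1 and 40.0 in replicate 2, and its window held 13 overlapping GAGAGA words. The shares and densities of this list and of those below were not tested or adjusted for intron length.

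Of 35 forkhead and T-box genes with eligible sequence, 3 were hosts (8.57%), namely fkh-7, fkh-9 and daf-16, the FOXO factor under insulin signalling (37.2). Their 4 peaks came to 49.7 per Mb, a higher density than the 42.9 of the signalling genes. Of 269 nuclear hormone receptor genes, 7 were hosts (2.60%), at 22.7 peaks per Mb. They included nhr-19 and daf-12, the dafachronic acid receptor (53.1). The other transcription factor lists had 1 host each, egl-27 among 9 GATA-type genes, crh-2, a CREBH relative, among 26 bZIP genes, hlh-30, the TFEB relative, among 41 bHLH genes, and egl-5 among the Hox genes. None of 89 other homeobox genes was a host. By density the GATA-type list stood at 38.5 peaks per Mb, on 1 peak. These counts cover listed genes only, and the host let-607, for example, was in none of the lists.

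In the remaining lists with hosts, the shares ran from 0.917 to 3.30%, against 1.04% of all genes, and were not tested. They cover listed genes only. The host mom-1, described above for its part in Wnt secretion, was in none of the lists. Hosts were 4 of 174 extracellular matrix and adhesion genes (2.30%), 5 of 173 ion channel genes (2.89%), 3 of 91 muscle and cytoskeleton genes (3.30%), 2 of 74 synapse genes (2.70%), 1 of 39 Wnt and Notch genes (2.56%), 3 of 216 receptor genes (1.39%), 2 of 165 xenobiotic genes (1.21%), 4 of 363 lipid and intestine genes (1.10%) and 1 of 109 solute carrier and ATPase genes (0.917%). Of 23 genes listed as known SKN-1 regulators and targets with eligible sequence, 0 were hosts, as were 0 of 22 proteasome and 0 of 36 ribosomal protein genes. The 3 lists held 21416, 4019 and 4005 bp of eligible sequence in all. The first of them leaves out the signalling genes counted above, so its 0 does not cover hosts such as daf-2, pdk-1, mpk-1 and aak-2. For the named hosts of the small lists, the strongest peaks were egl-27 (49.0), lit-1, the Nemo-like kinase of Wnt signalling (48.9), crh-2 (50.6) and hlh-30 (31.0). In sulp-3 and haf-9, as above, and in frm-7 (54.8), him-4 (43.9), unc-33 (40.1), the potassium channel gene twk-5 (37.0), the transporter gene catp-8 (33.1) and the acetylcholine receptor gene acr-18 (29.5), the named summit lay within 200 bp of an annotated tRNA, snoRNA or snRNA gene.

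As a group, intron peaks had signal values in the range of other peaks of the list, and neither comparison passed the test. Peaks below the cut of the list are not part of these comparisons. Their median signal value was 36.9, with quartiles of 30.7 and 46.3 and extremes of 27.02 and 1175. The median was 38.3 for promoter peaks and 36.3 for intergenic peaks. Of intron peaks, 98 of 210 (46.7%) exceeded the median of the list, against 611 of 1171 promoter peaks (52.2%). The difference was -5.51 percentage points (95% interval -12.7 to 1.82; Fisher's exact test, two-sided, adjusted p = 0.778 over 6 comparisons). Against intergenic peaks, 171 of 371 (46.1%), it was 0.575 points (-7.78 to 8.98; Fisher's exact test, two-sided, adjusted p = 0.931). In the list made from replicate 2 alone, the deficit relative to promoters was -10.3 points (adjusted p = 0.0239, Fisher's exact test), and from replicate 1 alone -8.52 points (adjusted p = 0.0589). In the stricter list, the 889 peaks of highest signal value, 98 intron peaks were left and the deficit was -12.9 points (-22.8 to -2.28; adjusted p = 0.0659, Fisher's exact test). At the very top, 3 of the 10 and 6 of the 50 strongest peaks of the whole list were intron peaks, of which 2 and 3 were in egl-5.

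**Figure D2:**
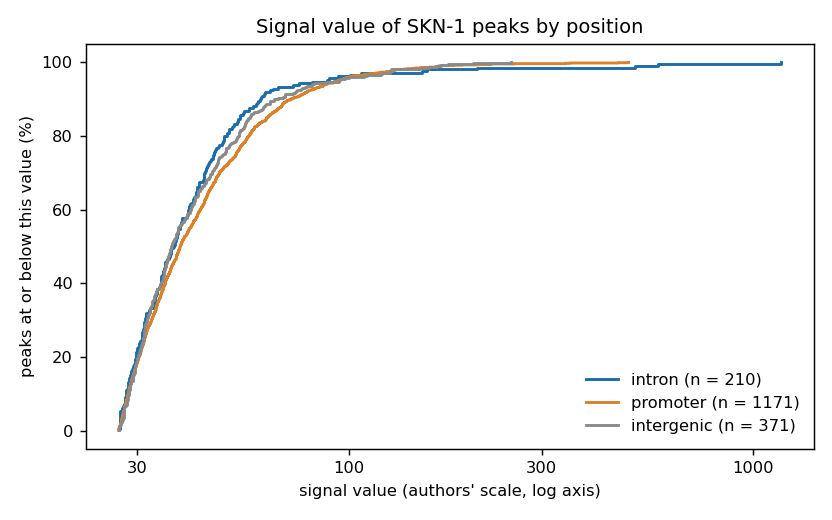
Share (%) of peaks at or below each signal value (authors' scale, log axis) for the 210 intron, 1171 promoter and 371 intergenic peaks of the IDR-thresholded list. The curves run close together, with medians of 36.9, 38.3 and 36.3, and the intron curve, alone of the 3, reaches 1175.

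Both replicates held a summit within 100 bp for 176 of 210 intron peaks (83.8%, 78.2 to 88.2%), against 1015 of 1171 promoter peaks (86.7%) and 304 of 371 intergenic peaks (81.9%). Over all peaks it was 85.1%. The list was derived from these replicates, so a match is partly built in. A match could have any rank in the replicate lists, which hold 22350 and 30000 lines with background. Within the 1778 highest ranks of replicate 1, 123 intron peaks (58.6%) had a match, against 59.2% of all peaks. For replicate 2 it was 164 (78.1%), against 81.7%. The difference was -2.87 points from promoters (-8.74 to 1.96; Fisher's exact test, two-sided, adjusted p = 0.778) and 1.87 points from intergenic peaks (-4.76 to 7.95; adjusted p = 0.778, same test). When a match had to lie within 50 bp, 116 intron peaks (55.2%) and 67.5% of promoter peaks had both, a difference of -12.3 points (adjusted p = 0.00405, Fisher's exact test). Of intergenic peaks, 212 of 371 (57.1%) had both, a difference of -1.90 points (adjusted p = 0.797, Fisher's exact test). Thus at that distance intron summits repeated less closely than promoter summits, while the difference from intergenic summits did not pass. Most unmatched peaks lacked replicate 1, since 28 were in replicate 2 only, 5 in replicate 1 only, and 1, in Y111B2A.12 (III, 12614947), in neither. The same imbalance held over all 1778 peaks, with 237 in replicate 2 only, 22 in replicate 1 only and 6 in neither.

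The share found in both replicates was lower at lower signal values. The signal value of the list derives from both replicates, so this trend is partly built in. Peaks of other classes were not divided in this way. Of the 52 intron peaks with the highest signal values, 49 (94.2%) had both replicates. The share was 88.7% in the next 53, 79.2% in the 53 after them and 73.1% in the 52 with the lowest. Among the 176 matched peaks, the replicate 1 signal value had a median of 11.4 and the replicate 2 value 27.1, on separate scales. Spearman's correlation between them was 0.23 across these peaks, and 0.38 across the 1015 matched promoter peaks. Both are correlations across peaks of the same libraries, which are not independent replicates.

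**Figure D3:**
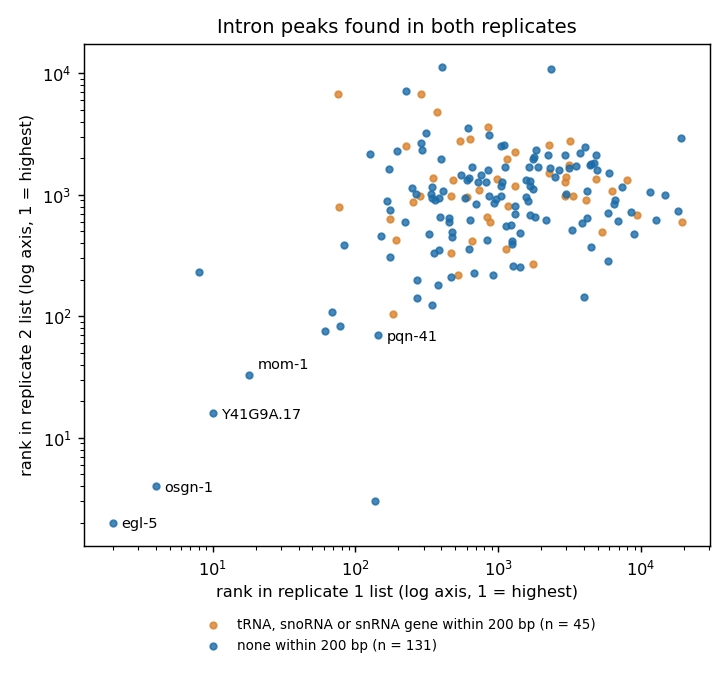
Rank in the replicate 2 list against rank in the replicate 1 list (both log axes, 1 is highest) for the 176 intron peaks matched in both, coloured by whether a tRNA, snoRNA or snRNA gene lies within 200 bp (orange, 45) or not (blue, 131). A few named peaks lie near the top in both, and the rest form a broad cloud.

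The GA repeat and the SKN-1 core were more frequent at intron summits than beside them. A window of 101 bp at the summit was compared with flanks of the same total length centred 300 bp away, by the exact McNemar test, two-sided, adjusted over 8 motifs. GAGAGA was at 59 summits (28.1%, 22.5 to 34.5%) and in the flanks of 14 peaks (6.67%), with an adjusted p of 9.4e-08, and it passed under all 11 alternatives run for it. It was in 4.18% of windows tiled over all eligible introns. Promoter summits held it in 24.3% and intergenic summits in 32.1%, so it was frequent in every class. The printed windows of osgn-1 and daf-14 are examples.

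The SKN-1 core was at 94 summits (44.8%, 38.2 to 51.5%) and in the flanks of 67 (31.9%), with an adjusted p of 0.0249 in the exact McNemar test, and in 28.6% of tiled windows. It did not pass with a promoter window of 2000 bp upstream (8.59 points, adjusted p = 0.191) or with the motif within 100 bp (7.62 points, adjusted p = 0.193), in the same exact test. The antioxidant response element word TGACNNNGC was at 10 summits (4.76%) and 2 flanks (0.952%, adjusted p = 0.043, same exact test), and it passed in 3 of 11 alternatives only. Without egl-5 its adjusted p was 0.0781, and without replicate 1 it was 0.153, in the same exact test. The full consensus was at 23 summits (10.95%, 7.41 to 15.9%), 12 flanks (5.71%) and 4.88% of tiled windows, which did not pass (adjusted p = 0.107, exact McNemar test). It passed without the 49 peaks near tRNA, snoRNA or snRNA genes described below, at 14.3% and 5.59% (adjusted p = 0.0215, exact McNemar test), a setting added after seeing the data. Other alternatives that moved it past 0.05 were a promoter window of 500 bp upstream and the list from replicate 2 alone. In the stricter list the consensus was at 7 of 98 summits and in the flanks of 4, a difference of 3.06 points (adjusted p = 0.833, exact McNemar test). The consensus share was 12.4% over all peaks, 12.5% in promoters and 12.9% in intergenic peaks. The differences were -1.52 points (-5.59 to 3.74) and -1.99 points (-7.18 to 3.82), each with an adjusted p of 0.778 in Fisher's exact test, two-sided. In the stricter list they were wider, since 7.14% of intron peaks held it, against 16.04% of promoter and 16.4% of intergenic peaks. The differences there were -8.90 points (-13.7 to -1.51; adjusted p = 0.0659) and -9.23 points (-16.5 to -0.851; adjusted p = 0.0750), in the same exact test.

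GATA sites (TGATAA) were at 37 summits (17.6%) and 22 flanks (10.5%, adjusted p = 0.100), E-boxes (CACGTG) at 12 and 7 (adjusted p = 0.411), and AP-1 type sites (TGANTCA) at 6 and 5 (adjusted p = 1), all by the exact McNemar test. The heat shock type pair GAANNTTC went the other way, at 3 summits (1.43%) and 21 flanks (adjusted p = 1.6e-04, exact McNemar test), beside 9.38% of tiled windows. It did not pass in the stricter list (2 and 9 of 98, adjusted p = 0.104) or with the motif within 25 bp (adjusted p = 0.0625), in the same exact test. Base composition moved with these shares. The median GC content was 46.0% at intron summits and 37.3% in their flanks, and its part in the motif shares was not tested. The consensus contains the core, and the GATA word can overlap a consensus, so these counts are not separate. Matches are words in a window and do not show binding at that word.

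**Figure D4:**
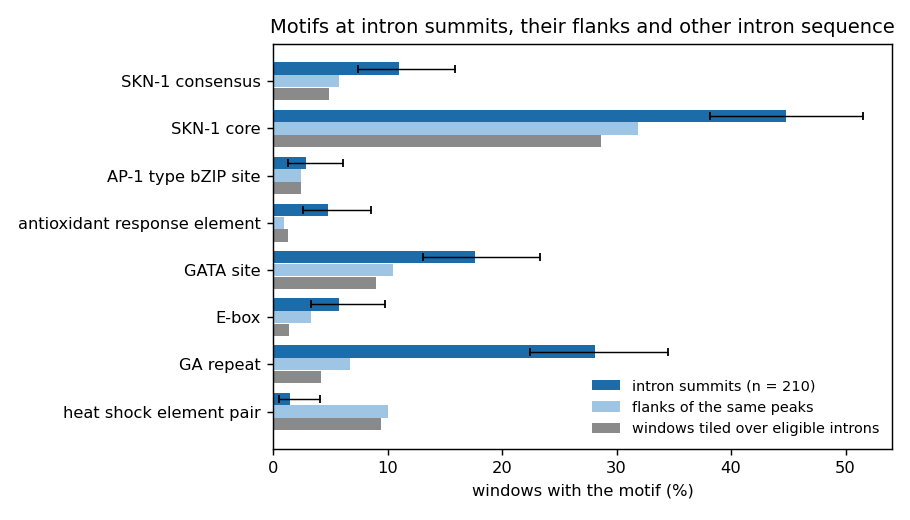
Share (%) of windows with each motif at the 210 intron summits (dark blue, with Wilson 95% intervals), in the flanks of the same peaks (light blue) and in 101 bp windows tiled over eligible introns (grey). The GA repeat was at 28.1% of summits and 6.67% of flanks, and the heat shock type pair at 3 summits and 21 flanks.

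Many intron peaks lay at small RNA genes. A tRNA gene lay within 200 bp of 25 intron summits (11.9%, 8.20 to 16.98%), against 28 promoter summits (2.39%; Fisher's exact test, two-sided, adjusted p = 3.43e-07 over 20 comparisons) and 30 intergenic summits (8.09%; adjusted p = 0.336, same exact test). A snoRNA gene lay within 200 bp of 21 (interval 6.63 to 14.8%), against 27 promoter summits (2.31%; adjusted p = 1.29e-05) and 14 intergenic summits (3.77%; adjusted p = 0.017), in the same exact test. These distances cover 0.287% and 0.176% of eligible bases. An snRNA gene was near 3. Genes annotated as ncRNA were near 51 (24.3%), against 13.2% of promoter summits (adjusted p = 5.82e-04) and 17.8% of intergenic summits (adjusted p = 0.27), by the same exact test. Without replicate 2, the differences from promoters were 2.59 points for snoRNA genes (adjusted p = 0.196) and 6.94 points for ncRNA genes (adjusted p = 0.0905), and neither passed Fisher's exact test. The difference from intergenic peaks for snoRNA genes passed in 2 of 8 alternatives, while that of tRNA genes from promoters passed in all 8. With summits in exons of any biotype left out, which takes away peaks inside these genes, the ncRNA difference from promoters was 0.400 points (adjusted p = 1, same exact test). The 10 biotypes were compared after the data had been seen. The classes of peaks differ by definition in where they can lie, which these tests do not adjust for.

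Together 49 intron peaks (23.3%), in 49 hosts, had a tRNA, snoRNA or snRNA gene within 200 bp, against 5.29% of promoter peaks and 12.9% of intergenic peaks. Of 239 tRNA genes in eligible introns, 27 (11.3%) had such a peak, and of 120 snoRNA genes 22 (18.3%). Most intronic small RNA genes thus had no intron peak. Over all annotated genes of these kinds, 93 of 612 tRNA genes (15.2%) and 62 of 346 snoRNA genes (17.9%) had a peak of any class. These shares count peaks of every class and include the intronic genes, while the intronic shares count intron peaks only. They are therefore not a like comparison. The 49 peaks had signal values from 27.1 to 88.2 with a median of 35.2, and the other 161 had a median of 37.4. Both replicates held 45 of the 49 (91.8%) and 131 of the 161 (81.4%). Genes for tRNAs exist in many near-identical copies, and no source used here says how reads that match several copies were placed, so the assignment of a peak to 1 copy is uncertain.

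These peaks accounted for most of those in short introns. In introns up to 1000 bp, 41 of 78 summits (52.6%) were near a small RNA gene, on 0.609% of eligible bases. In introns over 2000 bp it was 2 of 115 (1.74%), on 0.444% of bases. Away from small RNA genes, intron peaks came to 2.60 per Mb in introns up to 1000 bp, 2.13 per Mb in those over 1000 and up to 2000 bp, and 14.8 per Mb in those over 2000 bp. With all intron peaks counted, the 3 densities were 5.45, 3.27 and 14.998 per Mb, so the difference between long and short introns was wider away from small RNA genes. First introns held 7 of the 49 (14.3%) and 66 of the 161 (40.99%).

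**Figure D5:**
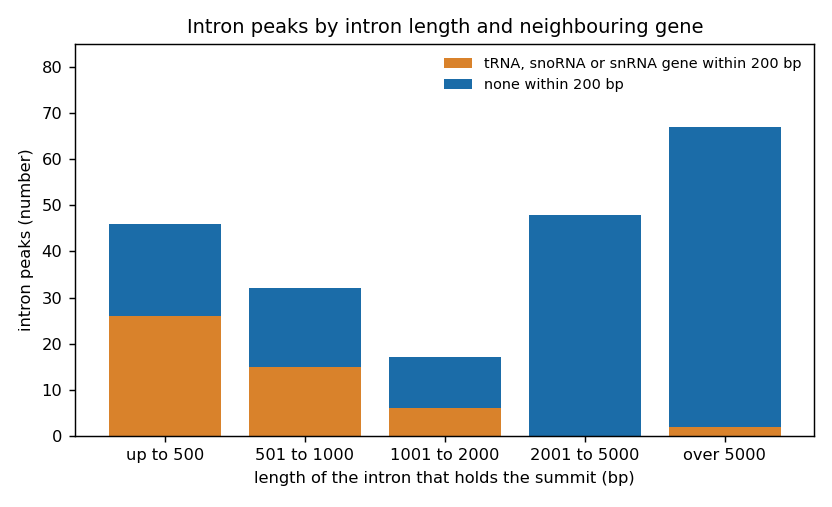
Number of intron peaks by length of the intron (bp), split into peaks with a tRNA, snoRNA or snRNA gene within 200 bp (orange) and without (blue). Of the 78 peaks in introns up to 1000 bp, 41 were near such a gene, and of the 115 in introns over 2000 bp, 2 were.

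The 49 peaks also differed in sequence from the other 161, as a description without a test. The SKN-1 consensus was at 0 of 49, which allows a share of up to 6.12%, and at 23 of 161 (14.3%). The core was at 10 of the 49 (20.4%) and 84 of the 161 (52.2%), the GATA word at 1 (2.04%) and 36 (22.4%), and GAGAGA at 9 (18.4%) and 50 (31.1%). The B box word GTTCGANNC, chosen after the sequences had been seen, was at 16 of 49 (32.7%) and 2 of 161 (1.24%). It was at 9 of the 25 summits near tRNA genes and 6 of the 21 near snoRNA genes, beside 1.45% of promoter summits, 2.96% of intergenic summits and 0.716% of tiled intron windows. No window with it held a core. The median GC content was 53.5% in the 49 windows and 42.6% in the 161, which bears on every word counted here.

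Among peaks with no small RNA gene nearby, the words under summits in short and long introns were counted separately. In introns up to 1000 bp, the consensus was at 10 of 37 summits (27.03%), the GATA word at 15 (40.5%) and GAGAGA at 3 (8.11%), with a median GC content of 35.6%. In introns over 2000 bp, the consensus was at 12 of 113 (10.6%), the GATA word at 19 (16.8%) and GAGAGA at 44 (38.9%), with a median GC content of 43.6%. The core was at about the same share in both, 51.4% and 53.1%. These groups were formed after the data had been seen and were not tested.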

How the data were processed

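Peak lists from ChIP-seq of eGFP-tagged SKN-1 were used, 1 group of 2 biological replicates. Per the text deposited with the samples, each replicate list and the pooled list hold peaks with background as input to IDR, and the thresholded list derives from them. The authors' signal value is a score whose scale no label states. The deposited file holds −log10 of the q-value, and every peak of the list sat at its ceiling of 3.78. Summits came from the deposited offset. Read depth is not in the lists. No source used here names the aligner or peak caller. The lists on ce10 were not used here.

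Introns, promoter windows and noncoding genes came from Ensembl release 115, and only exons of protein-coding genes entered the rule. Shares have Wilson 95% intervals, and differences Newcombe intervals; both cover counting error only. Fisher's exact test and the exact McNemar test (scipy 1.17.1, statsmodels 0.14.6) were adjusted by Benjamini and Hochberg's method. They treat peaks as independent, which neighbouring peaks and peaks of 1 host are not. The scripts were tested on simulated data. The members, gene lists, tests and alternatives were chosen with earlier results of these data known. Named genes were the hosts of the 15 intron peaks of highest signal value, hosts with 3 or more intron peaks, and from each list the host of the strongest intron peak matched in both replicates. Other hosts of the lists (among them unc-43, pdk-1, vhp-1, mpk-1, daf-2, aak-2, sma-9, fkh-9, daf-16 and daf-12) and those near the limit of the rule were named after their values had been seen. Alternatives varied the promoter window, the exon rule, peaks per host, egl-5, list size, replicate, match distance, motif window and the definition of a first intron.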

Additional observations from a re-analysis of the deposited data

How the results depend on the processing

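With the stricter list of 889 peaks, 98 intron peaks remained in place of 210. Counting the first intron of any transcript moved the share of summits in first introns to 46.2%. The difference in signal from promoter peaks was -10.3 to -8.52 percentage points with a replicate left out, with an adjusted p of 0.0239 in Fisher's exact test without replicate 1. The match within 50 bp gave -12.3 points against promoter peaks (adjusted p = 0.00405, Fisher's exact test) and -1.90 points against intergenic peaks (adjusted p = 0.797, same test). For the consensus at summits minus flanks, the exact McNemar test passed with a promoter window of 500 bp upstream (6.48 points, adjusted p = 0.0222), without replicate 1 (adjusted p = 0.0383) and without peaks near small RNA genes (8.70 points, adjusted p = 0.0215, added after seeing the data). With a replicate left out it ran from 3.52 to 6.05 points. The cause of these changes was not tested. Of the signal, match and consensus differences, none passed as reported, and the alternatives not named here changed no call. Those from intergenic peaks changed sign in places, as for signal without replicate 1 (-6.17 points), and the consensus against promoter peaks did with exons of all biotypes (0.600) and without peaks near small RNA genes (1.30). The other motifs and the tRNA, snoRNA and ncRNA neighbours were recomputed after their results had been seen. There, 22 values lost their call, the GATA word passed under 2 settings, and of the motifs and neighbours the AP-1 type site and the E-box alone changed sign, neither of which passed. No alternative with a replicate left out exists for the match in both replicates. No paired analysis was possible because there is only 1 group of samples. Unknown read depth limits what can be said of weak peaks.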
